A study of Mus musculus with 8 samples.

Results

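Genes that are used to mark newborn and maturing neurons were followed in the mouse brain cortex after a high fat diet. The 9 genes are a list of names, chosen without a threshold on their values: Dcx, Stmn1, Tubb3, Cd24a, Dlx1, Dlx2, Dlx5, Dlx6 and Igfbpl1. Of these, 7 were among the 13996 genes of the expression values, and the same 7 were among the 13982 genes that were tested. Dlx2 and Igfbpl1 had no row in the values used here and were not analysed here. The samples were cortexes of male C57BL/6 mice, 1 library per mouse, from 4 normal mice kept on a conventional diet and 4 mice fed a diet with 60% fat by weight (HFD). Feeding began at 8 weeks of age and lasted 8 weeks, so all mice were 16 weeks old at sacrifice, under ether anesthesia in both groups. Libraries were made from rRNA-depleted total RNA. The values are FPKM, the fragments mapped to a gene divided by its transcript length and by the sequencing yield of the library. Levels can thus be compared between genes of different length.

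A neuron that has just left the cell cycle carries a set of proteins that it later loses or reduces. Doublecortin binds and stabilizes microtubules while the cell migrates, stathmin takes tubulin dimers out of the pool that can polymerize, and class III beta-tubulin is built into the microtubules of neurons from their birth onward. CD24 is a small glycoprotein anchored to the cell surface. The Dlx genes encode homeodomain transcription factors that specify GABA neurons of the embryonic ventral forebrain. In the adult mouse, newborn neurons arise mainly from the wall of the lateral ventricle, from where they migrate to the olfactory bulb, and in the dentate gyrus. The cortex forms few if any. Several of these genes stay on in mature cells: Tubb3 and Stmn1 in many neurons, Dlx1, Dlx5 and Dlx6 in interneurons, and Cd24a in ependymal cells.

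The Dlx genes lie on GRCm38 as pairs whose members are transcribed toward each other. Dlx1 (chr2:71528113-71533981, plus strand) and Dlx2 (chr2:71543408-71546754, minus strand) are separated by 9426 bp, and Dlx6 (chr6:6863334-6868568, plus strand) and Dlx5 (chr6:6877805-6882085, minus strand) by 9236 bp. The 30 bases of coding sequence below, all within exon 2 of the gene, come from a search that started from Dlx5. The Dlx5 stretch is the one with the fewest differences in total from its closest matches in the other paralogs shown. The stretches are shown because near-identical paralogs can share reads, and capitals mark the bases that differ from Dlx5.
Dlx5: aaacccaggactatttattccagctttcag
Dlx6: aaGccTCggacCatttattccagcCtGcag
Dlx1: aaacccaggacAatttattccagTttGcag
Dlx2: aaaccACgCacCatCtaCtccagTttCcag
The stretches lie at chr6:6879622-6879651 on the minus strand for Dlx5, at chr6:6865146-6865175 on the plus strand for Dlx6, at chr2:71531031-71531060 on the plus strand for Dlx1 and at chr2:71545480-71545509 on the minus strand for Dlx2. In these stretches Dlx1 differs from Dlx5 at 3 of the 30 bases, Dlx6 at 6 and Dlx2 at 8. No window of 100 bases, which is the read length, was shared between the transcripts of any of these genes. Dlx1 shared 239 of its 5715 windows with its antisense transcript Dlx1as, and Dlx5, Dlx6, Dcx and Tubb3 shared none with any other gene. For Stmn1, 251 of 1956 windows (12.8%) were also found in Gm11223, which had no row in the values used here, and for Cd24a 2 of 2410 (0.083%) were found in Gm6212.

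The diets were compared with limma on log2(FPKM + 0.1), two-sided, with Benjamini-Hochberg adjustment over all 13982 genes. A gene was called when its adjusted p was below 0.05 and the higher diet exceeded the lower by more than 1.5-fold on that scale. The added 0.1 makes fold changes of low genes appear smaller than they are. Of all genes tested, 997 (7.13%) were called, 591 higher and 406 (2.9%) lower in HFD mice. Of the 7 immature neuron genes, 1 was called (14.3%): Cd24a, which was lower. An adjusted p below 0.05 with no minimum change was reached by Cd24a and Stmn1, 2 of 7 (28.6%) against 33.1% of all genes, and the FPKM of the diets did not overlap for the same pair of genes, against 31.9% of all genes. The log2 fold change was positive for 4 genes and negative for 3, with a median of 0.04, beside 0.0031 over all genes. The 7 genes thus had no common direction.

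**Figure D1:**
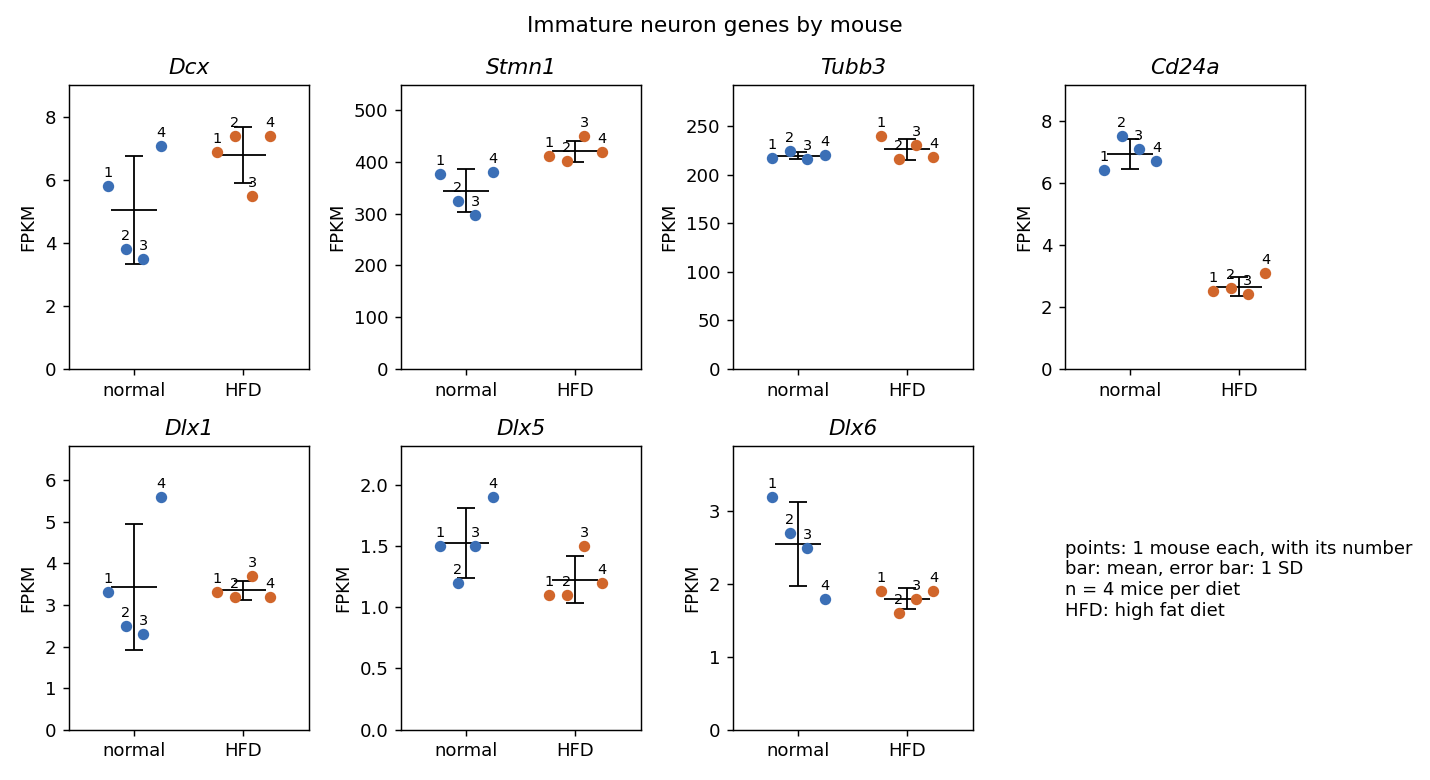
FPKM of the 7 measured immature neuron genes in each of 4 normal and 4 high fat diet (HFD) mice, 1 point per mouse with its number, with the mean (bar) and 1 SD (error bar). Cd24a lies between 6.4 and 7.5 in normal mice and between 2.4 and 3.1 in HFD mice, and normal mice 2 and 3 are the lowest of all in Dcx, Stmn1 and Dlx1.

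Levels spanned a wide range. Averaged over the 8 mice, Stmn1 was highest at 382 FPKM, followed by Tubb3 at 223 FPKM, and these stood at percentiles 99.2 and 98.3 of all genes tested. Dcx followed at 5.93 FPKM (percentile 35.4), then Cd24a at 4.79, Dlx1 at 3.39, Dlx6 at 2.18 and Dlx5 at 1.38 FPKM (percentile 5.81). The steps from Stmn1 to Tubb3 and from Tubb3 to Dcx held in 8 of 8 mice with no overlap of their ranges. Below Dcx, the ranges of neighbours overlapped: Dcx exceeded Cd24a in 5 of 8 mice, Cd24a exceeded Dlx1 in 4, Dlx1 exceeded Dlx6 in 6 and Dlx6 exceeded Dlx5 in 7. The values are rounded to 0.1 FPKM, a step that equals 7.27% of the mean level of Dlx5 and 4.60% of that of Dlx6. FPKM do not show how many reads a value rests on.

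Among the microtubule genes, Stmn1 was modestly higher in HFD mice, Dcx was higher on average with overlapping values, and Tubb3 hardly differed. Stmn1 (chr4:134468320-134473843, plus strand), the gene of stathmin, had 377.2, 324.3, 296.6 and 380.0 FPKM in normal mice 1 to 4 and 410.2, 401.6, 449.5 and 418.6 FPKM in HFD mice 1 to 4. Each HFD mouse exceeded each normal mouse, and normal mice 2 and 3 were the lowest. The means were 345 ± 41.0 and 420 ± 20.9 FPKM (SD, n = 4 each), an increase of 21.9% in the mean and a log2 fold change of 0.29 ± 0.08 (SE; limma adjusted p = 0.0264), below the 1.5-fold minimum. Its adjusted p rose above 0.05 in 5 of 8 fits that left out 1 mouse, those without normal mouse 2 or 3 or HFD mouse 1, 3 or 4 (adjusted p 0.0510 to 0.0720, log2 fold change 0.22 to 0.30). It was 0.135, with a log2 fold change of 0.15, when normal mice 2 and 3 were both left out.

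Dcx (chrX:143855842-143933311, minus strand), the gene of doublecortin, had 5.8, 3.8, 3.5 and 7.1 FPKM in normal mice 1 to 4, and 6.9, 7.4, 5.5 and 7.4 FPKM in HFD mice 1 to 4. Normal mice 2 and 3 fell below all other mice, whereas normal mice 1 and 4 lay within the range of the HFD mice. The means were 5.05 ± 1.71 and 6.80 ± 0.898 FPKM, and the log2 fold change of 0.47 ± 0.21 did not pass the test (limma adjusted p = 0.114, 95% interval from -0.0026 to 0.95). The call depended on single mice: without normal mouse 4 Dcx was called at 0.65 (limma adjusted p = 0.0227), and without normal mice 2 and 3 the log2 fold change was 0.07 (limma adjusted p = 0.744). Over the 8 mice the genes whose log2 values were most like those of Dcx were Map2 (Pearson r = 0.982), Pdzd4 (0.979) and Gda (0.976), of which Map2 encodes a microtubule protein of mature dendrites and Gda the guanine deaminase. These correlations include any difference between the diets. Map2 had 351.7, 312.3, 319.1 and 365.9 FPKM in normal mice and 368.2, 371.4, 344.2 and 378.3 FPKM in HFD mice, so here too normal mice 2 and 3 were lowest and HFD mouse 3 was the lowest of its diet.

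Tubb3 (chr8:123411424-123422015, plus strand) was the most even of the genes. It had 217, 223.9, 216.5 and 220.4 FPKM in normal mice and 239.7, 216.2, 230.7 and 218.1 FPKM in HFD mice. The ranges overlapped and the means were 219 ± 3.44 and 226 ± 11.1 FPKM. The log2 fold change was 0.04 ± 0.05 (limma adjusted p = 0.514), with a 95% interval from -0.06 to 0.15, and stayed between 0.01 and 0.06 in all 19 alternative settings. The spread relative to the mean was 1.57% in normal mice and 4.90% in HFD mice. The annotation places Tubb3 entirely within the longer model Gm20388 on the same strand, with no window of 100 bases in common.

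In the families of these genes, called shares were 10% of the tubulins and 0% of the stathmins and microtubule proteins, beside 7.13% of all genes, and 20% and 31.2% had a limma adjusted p below 0.05, beside 33.1%. Of 10 tubulins tested, 1 was called, Tuba8, at -0.77 ± 0.20 (limma adjusted p = 0.0167), with 6.5, 9, 9.1 and 8.9 FPKM in normal mice and 4.9, 3.5, 7.2 and 4.4 FPKM in HFD mice, which overlap. Tuba8 was not called without normal mice 2 and 3, nor without normal mouse 4 and HFD mouse 4. Tubb4a, the beta-tubulin of mature neurons and oligodendrocytes, also had an adjusted p below 0.05 (0.36 ± 0.07), and the median of the list was 0.02, with a mean of -0.05. The developmental Tubb2b was at 45.4 ± 1.83 FPKM in normal and 42.2 ± 6.47 FPKM in HFD mice (-0.12 ± 0.10, limma adjusted p = 0.381). None of 16 stathmins and microtubule proteins was called, at a list median of 0.07. In this list limma's adjusted p was below 0.05 for 4 higher genes, Map1a (0.39), Map7d1 (0.37), Map6 (0.26) and Map1b (0.18), and for 1 lower gene, Dclk3 (-0.38).

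The other stathmins did not share the log2 fold change of Stmn1. Stmn2 was at 94.1 ± 6.89 and 98.2 ± 4.01 FPKM (0.06, 95% interval -0.07 to 0.19, limma adjusted p = 0.432). Stmn3 gave -0.07 (-0.19 to 0.05, limma adjusted p = 0.333). Stmn4 had 99.6, 99, 96.5 and 96 FPKM in normal mice and 91.3, 95.5, 91.2 and 92.4 FPKM in HFD mice, lower in each HFD mouse than in any normal mouse, but its log2 fold change of -0.08 did not pass (limma adjusted p = 0.136). Whether Stmn1 differed from its paralogs in its response was not tested. Dclk1, the doublecortin-like kinase, had 246.3, 199.2, 181.3 and 244.3 FPKM in normal mice and 239.3, 233.1, 247.4 and 234.3 FPKM in HFD mice (0.14, limma adjusted p = 0.273). As for Dcx, normal mice 2 and 3 were its lowest.

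Cd24a was the only one of the 7 genes that was called, and its mean FPKM fell by 61.7% in HFD mice. Cd24a (chr10:43578284-43584265, plus strand) had 6.4, 7.5, 7.1 and 6.7 FPKM in normal mice 1 to 4 and 2.5, 2.6, 2.4 and 3.1 FPKM in HFD mice 1 to 4. All normal mice lay above all HFD mice, and the lowest normal mouse had more FPKM than the highest HFD mouse by a gap wider than the range of either diet. The means were 6.93 ± 0.479 and 2.65 ± 0.311 FPKM, and the log2 fold change was -1.36 ± 0.09 (limma adjusted p = 0.000126, 95% interval -1.57 to -1.14). It passed in all 18 alternatives in which it was tested, with log2 fold changes from -1.45 to -1.12 and limma adjusted p from 8.87e-05 to 0.00339. With a mean of 4.79 FPKM it was not tested when a mean of at least 5 FPKM was required. The genes most like Cd24a over the 8 mice were Eef1e1 (Pearson r = 0.997), a translation-associated factor, Strap (0.996) and Cyp51 (0.993), the lanosterol demethylase of cholesterol synthesis, and their correlations include the difference between the diets. All 3 were lower in HFD mice by less than Cd24a, with log2 fold changes of -0.47, -0.23 and -0.43.

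**Figure D2:**
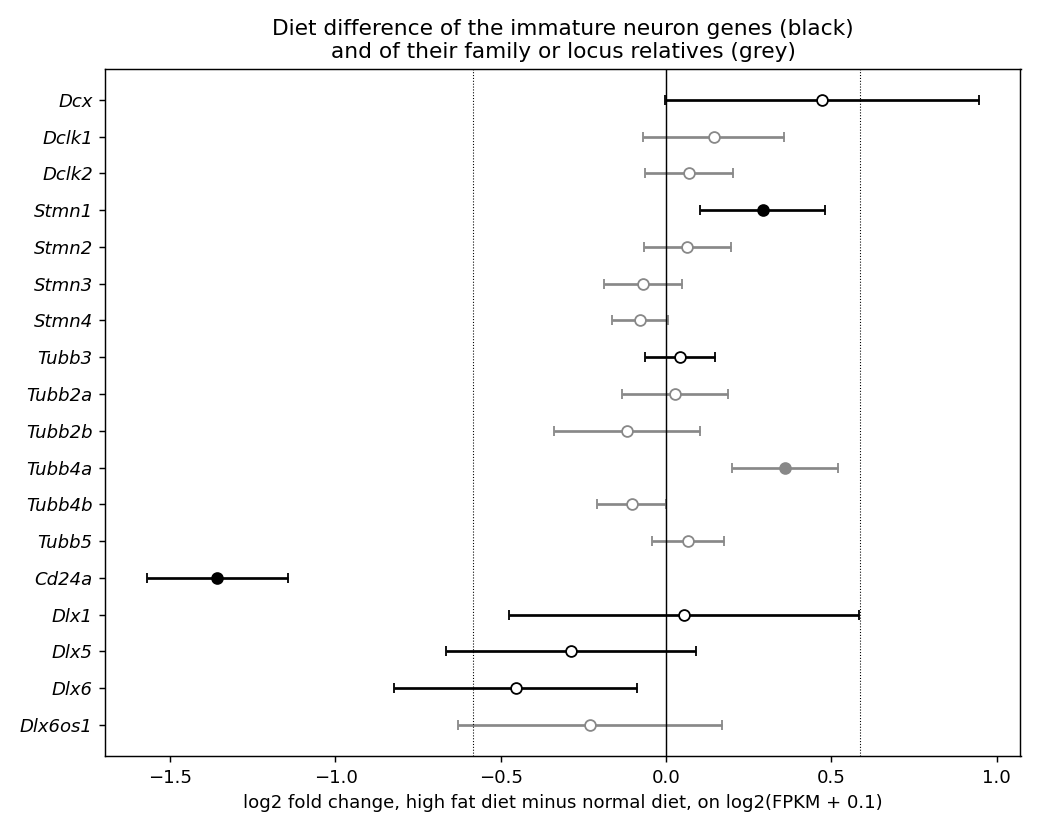
Log2 fold change (HFD minus normal, on log2(FPKM + 0.1)) of the 7 measured genes (black) and of relatives from their families or loci (grey), with 95% intervals from limma. Filled points have an adjusted p below 0.05 and dotted lines mark 1.5-fold. Cd24a lies at -1.36 beyond the line, Stmn1 at 0.29 inside it, and the intervals of Dcx, Dlx1, Dlx5 and Tubb3 include 0. That of Dlx6 does not include 0, though its adjusted p is above 0.05, as the intervals are not adjusted for the number of genes.

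Markers of ependymal cells, which line the ventricles and carry CD24, moved the same way as Cd24a. They were not alone in this. Markers of striatal projection neurons, cerebellar granule cells and olfactory bulb, described below, were also lower, with mean log2 differences of -1.73, -2.22 and -1.35. All 7 ependyma markers tested of 11 listed were called lower in HFD mice, beside 2.9% of all genes, with a list median of -1.25. The other 4 had no row in the values used here. Tmem212 and Mia averaged 0.575 and 0.75 FPKM in HFD mice, so they met the minimum mean of 1 FPKM through the normal mice. For such genes the filter itself favours a lower level in HFD mice. The summed level of the list was 19.7 to 34.7 FPKM in normal mice and 8.8 to 15.7 FPKM in HFD mice. None of its tested genes was at 0 in any mouse, which the filter required. Foxj1, the master regulator of motile cilia, had 3.7, 4.8, 5.5 and 3 FPKM in normal mice and 1.3, 1.6, 2 and 1.9 FPKM in HFD mice. Normal mice 2 and 3 were highest in both the ependyma sum and Cd24a. The mean log2 difference of the ependyma list was -1.40 with all mice and -1.07 without these mice, where 1 of its markers was called with 2 fewer mice. Cd24a was at -1.28 without them (limma adjusted p = 0.00219). The ependyma sums of normal mouse 4 (19.7 FPKM) and HFD mouse 3 (15.7 FPKM) lay closest, and Cd24a in these mice was 6.7 and 2.4 FPKM. The part of ependymal RNA in the difference of Cd24a was not tested. In tissue samples such as these, fewer cells of a type and less RNA per cell cannot be told apart.

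Choroid plexus markers had sums of 496.7 to 975.6 FPKM in normal mice and of 157.2, 100.1, 118.4 and 1162.5 FPKM in HFD mice 1 to 4. Of 10 tested, 4 were called lower, beside 2.9% of all genes. That count was 10 without HFD mouse 4, 4 without normal mouse 4, and 0 without any other single mouse or with the replicate number as a block. Otx2, Aqp1 and Sostdc1 averaged 0.675, 0.8 and 0.95 FPKM in HFD mice, so they met the minimum mean of 1 FPKM through the normal mice. HFD mouse 4, with the highest choroid plexus sum of all mice, also had the highest Cd24a of its diet. With normal mouse 4 and HFD mouse 4 both left out, Cd24a was at -1.45 (limma adjusted p = 0.000446).

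None of the Dlx genes was called, and in Dlx1 the normal mice differed among themselves by more than the diets did. Dlx1 had 3.3, 2.5, 2.3 and 5.6 FPKM in normal mice 1 to 4 and 3.3, 3.2, 3.7 and 3.2 FPKM in HFD mice 1 to 4. The HFD mice lay entirely within the range of the normal mice, in which mouse 4 was highest and mice 2 and 3 lowest. The means were 3.43 ± 1.51 and 3.35 ± 0.238 FPKM (0.05 ± 0.24, limma adjusted p = 0.877, 95% interval -0.47 to 0.58). The mean FPKM was thus slightly lower in HFD mice while the log2 fold change was slightly positive. The sign of the log2 fold change turned to -0.06 without normal mouse 2 (limma adjusted p = 0.872), to -0.10 without normal mouse 3 (0.772) and to -0.35 without both (0.220). It was 0.32 without normal mouse 4 (limma adjusted p = 0.102). The spread relative to the mean was 44.2% in normal and 7.11% in HFD mice, against medians of 8.45% and 7.08% over all genes. It was larger in normal mice for 5 of the 7 genes, and for 58.6% of all genes. The genes most like Dlx1 over the 8 mice were Rbm19 (Pearson r = 0.940), Ttpal (0.933) and Pcbp3 (0.927), and each of these was highest in normal mouse 4.

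Dlx5 and Dlx6, neighbours on chromosome 6, were lower on average in HFD mice without passing the test. Dlx5 had 1.5, 1.2, 1.5 and 1.9 FPKM in normal mice and 1.1, 1.1, 1.5 and 1.2 FPKM in HFD mice, with overlap (1.53 ± 0.287 and 1.23 ± 0.189 FPKM, log2 fold change -0.29 ± 0.17, limma adjusted p = 0.215). Dlx6 had 3.2, 2.7, 2.5 and 1.8 FPKM in normal mice and 1.9, 1.6, 1.8 and 1.9 FPKM in HFD mice. Normal mouse 4 was at the level of the HFD mice and the other 3 normal mice were above them. The means of Dlx6 were 2.55 ± 0.580 and 1.80 ± 0.141 FPKM, with a log2 fold change of -0.46 ± 0.16 (limma adjusted p = 0.0578). Without normal mouse 4, Dlx6 was called lower at -0.61 (limma adjusted p = 0.00851), and without normal mice 2 and 3 it was at -0.40 (limma adjusted p = 0.224).

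Dlx6 lies entirely within Dlx6os1 (chr6:6820189-6871592, minus strand), a long noncoding RNA transcribed from the opposite strand and also known as Evf2. Their annotated transcripts share no window of 100 bases, but total RNA also holds unspliced transcripts. The libraries kept the strand, and the sources used here do not say whether strand was used in the counting. Without it, unspliced Dlx6os1 and Dlx6 cannot be told apart over Dlx6. The same holds for Dlx1, which lies entirely within Dlx1as (chr2:71516454-71537891, minus strand), a transcript with no row in the values used here. Dlx6os1 had 5.5, 4.1, 4 and 7.6 FPKM in normal mice and 4.3, 4.4, 4.3 and 4.4 FPKM in HFD mice (-0.23 ± 0.18, limma adjusted p = 0.343). Its order in the normal mice was that of Dlx1, with mouse 4 highest and mouse 3 lowest, and not that of Dlx6, in which mouse 4 was lowest. The ratio of Dlx6os1 to Dlx6 FPKM was 1.72, 1.52, 1.6 and 4.22 in normal mice 1 to 4, and 2.26, 2.75, 2.39 and 2.32 in HFD mice 1 to 4. Normal mouse 4 thus stood apart in its antisense to sense ratio, and the other 3 normal mice were below all HFD mice.

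**Figure D3:**
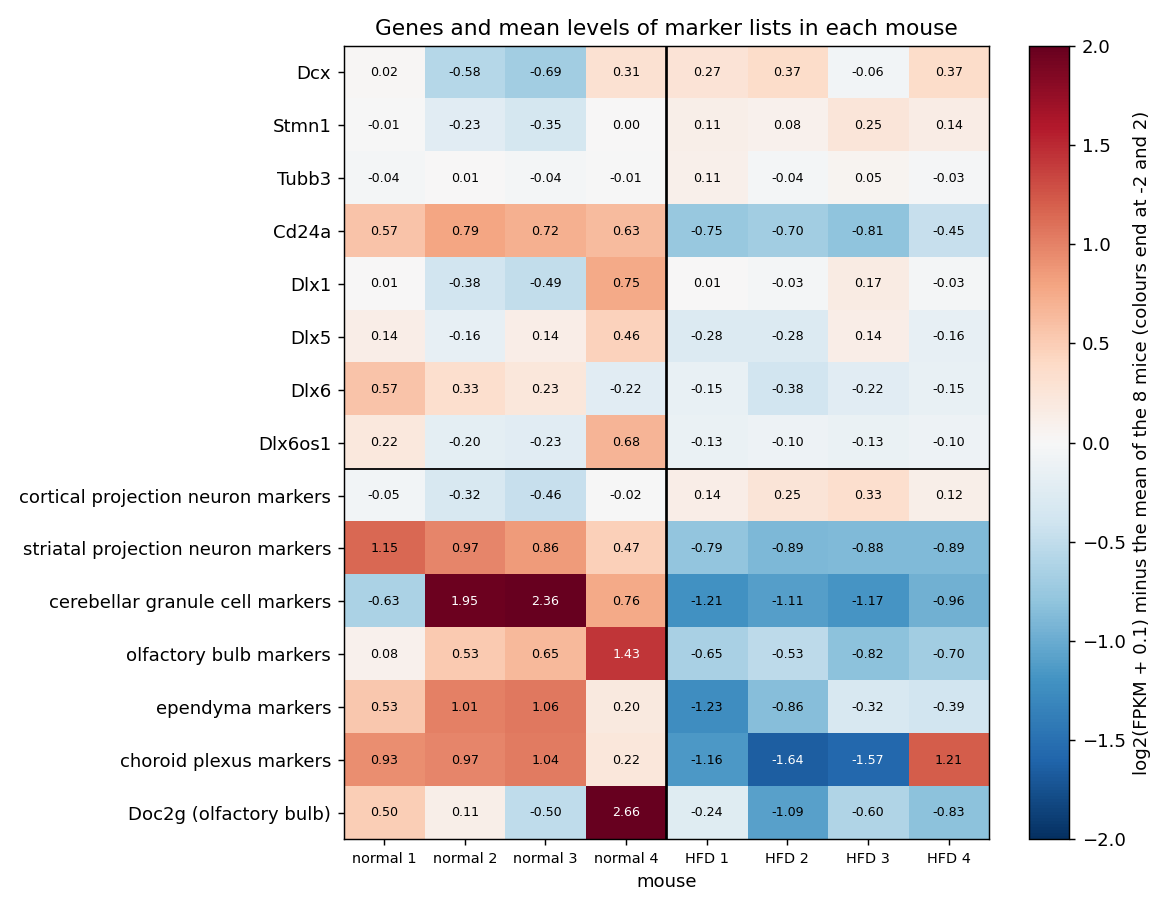
Heat map of 8 genes (top) and of the mean over marker lists (bottom) in each mouse, as log2(FPKM + 0.1) minus the mean of the 8 mice, printed in each cell. The last line is Doc2g alone. Normal mice 2 and 3 are low in Dcx, Stmn1 and Dlx1 and high in cerebellar granule cell markers, and normal mouse 4 is high in Dlx1, Dlx6os1 and Doc2g.

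Markers of other brain regions also differed among the normal mice. The cerebellar granule cell markers summed to 58.9, 270.6, 364.2 and 117.5 FPKM in normal mice 1 to 4 and to 67.7 to 73.9 FPKM in HFD mice. Tiam1 and Etv1 averaged 25.8 and 20.7 FPKM in HFD mice, a large part of the sums there. Also summed was Gabra6 (1.7, 46.5, 61.7 and 12.2 FPKM in normal mice, 0 to 0.2 FPKM in HFD mice), not tested because of its 0. Of 10 tested, 4 were called lower, Cbln3, Fat2, Zic1 and Pax6, beside 2.9% of all genes. Cbln3 and Fat2 averaged 0.325 and 0.15 FPKM in HFD mice, so they met the minimum mean of 1 FPKM through the normal mice. Without normal mouse 1, 8 of these markers were called. Normal mice 2 and 3, with the highest of these sums, were those with the lowest Dcx, Stmn1, Dlx1 and Dlx6os1. Normal mouse 4 had the highest level of the mitral cell genes Doc2g (2.9, 2.2, 1.4 and 13.3 FPKM in normal mice, 0.9 to 1.7 FPKM in HFD mice) and Cdhr1 (2.1, 0.9, 1.2 and 6.9 FPKM in normal mice, 0.7 to 1.1 FPKM in HFD mice), both chosen after their values were seen. This mouse also had the highest Dlx1, Dlx5 and Dlx6os1. Of 7 olfactory bulb markers tested of 11 listed, 3 were called lower, Th, Calb2 and Pax6, beside 2.9% of all genes. Th averaged 0.525 FPKM in HFD mice, so it met the minimum mean of 1 FPKM through the normal mice. Doc2g, Cdhr1, Tshz1 and Trh were not called (limma adjusted p 0.0887 to 0.140). The bulb sums were 31.2 to 108.5 FPKM in normal and 20.7 to 26.8 FPKM in HFD mice. In normal mice 2 and 3 they were 94.8 and 108.5 FPKM, of which Calb2 alone made 71.2 and 83.1 FPKM. Pax6 is also on the cerebellar list. Of 16 striatal projection neuron markers tested, 13 were called lower (median -1.63), beside 2.9% of all genes. Drd2, Adora2a and Ebf1 averaged 0.45, 0.45 and 0.75 FPKM in HFD mice, so they met the minimum mean of 1 FPKM through the normal mice. The striatal markers summed to 563.6, 465.2, 442.5 and 334.1 FPKM in normal mice 1 to 4 and to 154.1 to 168.5 FPKM in HFD mice. The order of normal mice in this sum is that of Dlx6. Cortical projection neuron markers were present in every mouse. Their sums were 586.5, 456.2, 427.9 and 612.9 FPKM in normal mice 1 to 4. In HFD mice 1 to 4 they were 668.4, 705.5, 781.5 and 668.2 FPKM. Normal mice 2 and 3 were thus lowest in this sum, as they were in Stmn1 and Dcx. HFD mouse 3 was highest in this sum and in Stmn1, but lowest of its diet in Dcx. Of these markers 5 of 15, among them Fezf2, Tbr1, Cux2 and Emx1, were called higher and 1, Foxp2, lower. Over all genes, 7.13% were called. The part of RNA of these cell types and regions in the values of Cd24a, Dcx, Stmn1 and the Dlx genes was not tested.

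The list of other immature neuron genes gave no common direction. Of 22 listed, 18 were tested, and 2 (11.1%) were called, beside 7.13% of all genes. Both were lower: Calb2, the gene of calretinin, and Prox1, a transcription factor of dentate granule cells. Calb2 had 11, 71.2, 83.1 and 36.6 FPKM in normal mice and 7.6, 10.9, 7.1 and 9.9 FPKM in HFD mice (-2.16 ± 0.54, limma adjusted p = 0.0142). Its highest values were in normal mice 2 and 3, and calretinin is also abundant in cerebellar granule cells. Prox1 had 4.8, 6.3, 5.6 and 4.1 FPKM in normal mice and 3.9, 2.8, 3.2 and 2.9 FPKM in HFD mice (-0.68 ± 0.15, limma adjusted p = 0.00792). With normal mice 2 and 3 left out, none of the list was called. With a limma adjusted p below 0.05 but under 1.5-fold, 3 genes were higher: Dpysl5, a collapsin response mediator (0.40), Cdk5r1, the activator of the kinase Cdk5 (0.25), and Ncam1, the neural cell adhesion molecule (0.18). The genes named in this and the other lists that were not called were chosen after their values were seen. The median of the list was -0.11 and its sum 1143.4 to 1233.6 FPKM in normal mice and 1075.2 to 1156.1 FPKM in HFD mice.

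**Figure D4:**
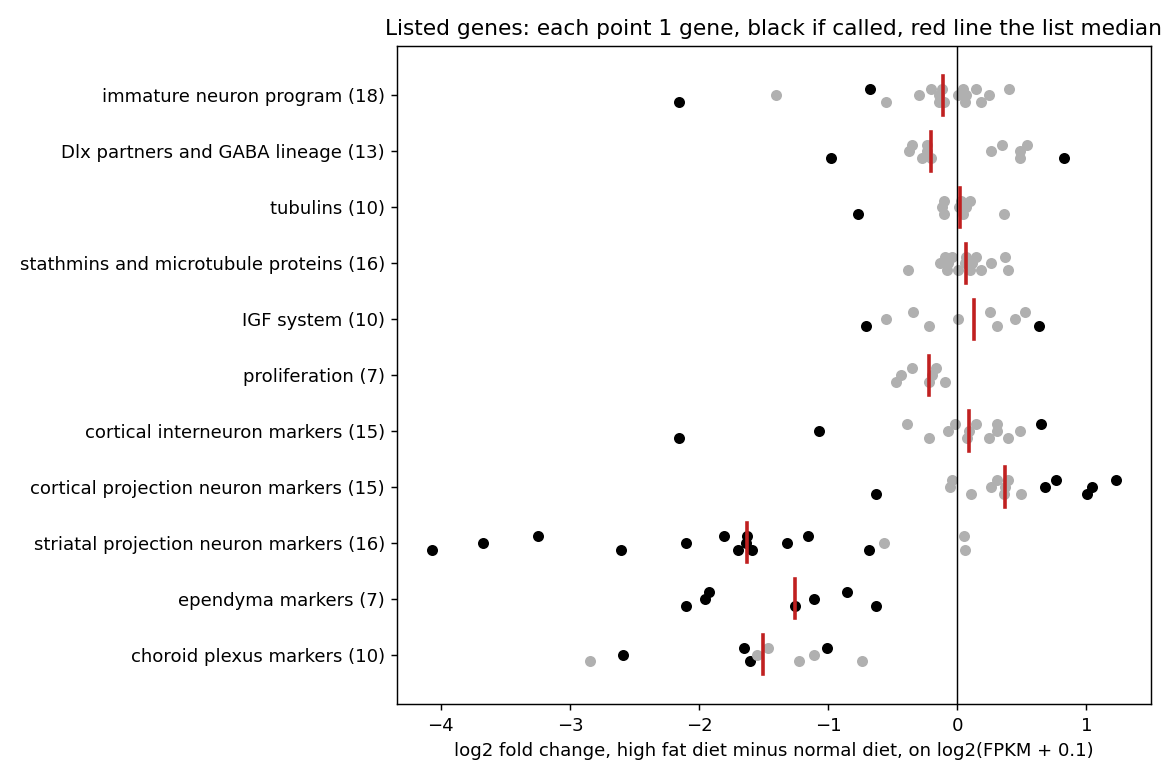
Log2 fold change (HFD minus normal, on log2(FPKM + 0.1)) of each tested gene of 11 lists, with the number of genes in brackets, called genes in black and the list median as a red line. The lists related to immature neurons have medians from -0.22 (proliferation) to 0.13 (IGF system). Those of striatal projection neurons, ependyma and choroid plexus lie at -1.63, -1.25 and -1.51.

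Among 13 tested genes that act with or beside the Dlx factors in GABA neurons, 2 (15.4%) were called, 1 in each direction, beside 7.13% of all genes. A limma adjusted p below 0.05 was reached by 9 (69.2%), beside 33.1% of all genes. The lower one was Pax6, a factor of several progenitors, olfactory bulb neurons and cerebellar granule cells, at 3.4, 7.5, 8.5 and 5.4 FPKM in normal mice and 3, 2.8, 2.8 and 3.1 FPKM in HFD mice (-0.98 ± 0.24, limma adjusted p = 0.0131). With a limma adjusted p below 0.05 but under 1.5-fold, Lhx6 (0.49), Npas1 (0.49) and Erbb4 (0.35) were higher. Erbb4, a neuregulin receptor, had 10.9, 10.3, 10.3 and 12 FPKM in normal mice and 13.7, 14, 13.9 and 13.8 FPKM in HFD mice, without overlap. The genes of GABA synthesis and vesicular loading fell by less than 1.5-fold, Gad1 (-0.23), Gad2 (-0.35) and Slc32a1 (-0.37). Gad1 had 99.2, 105.7, 103.7 and 112.1 FPKM in normal mice and 88.7, 87.7, 95.4 and 86.5 FPKM in HFD mice. The median of this list was -0.21 and its mean 0.02. These 3 genes of GABA transmission are shared by all GABA neurons, including those of the striatum, and the part of striatal RNA in their values was not tested.

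Of the cortical interneuron markers, 3 of 15 (20%) were called, beside 7.13% of all genes. Vip was higher at 0.65 and Pvalb (-1.07) and Calb2 lower, with a list median of 0.09 and a mean of -0.08. A limma adjusted p below 0.05 was reached by 3 markers in each direction, among them Adarb2 (-0.39), which was lower. Without normal mice 2 and 3 none of these was called. The markers of proliferating cells gave no call among 7 tested of 13 listed, and Mki67, Top2a, Cdk1, Ccnb1, Ccnb2 and Rrm2 had no row in the values used here. Each of the 7 was lower on average in HFD mice, and 4 (57.1%) had a limma adjusted p below 0.05, beside 33.1% of all genes. These were Nes (-0.48), an intermediate filament of neural progenitors and vessels, the replication helicase subunit Mcm2 (-0.44), the cyclin Ccnd1 (-0.22) and the replication clamp Pcna (-0.16). Pcna had 24.2, 24.3, 24.1 and 24 FPKM in normal mice and 22.9, 20, 22.4 and 21 FPKM in HFD mice. Neural stem cell and astrocyte markers had 3 calls among 13, Thbs4 higher and Fabp7 and Aqp4 lower. Of 5 dentate granule cell markers tested, Plk5 and Prox1 were called lower. Of 11 oligodendrocyte precursor markers, Bcas1, Cacng4 and Gpr17 were called lower.

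Igfbpl1 (chr4:45809468-45826923, minus strand) encodes a protein related to the binding proteins of the insulin-like growth factors, and as it had no value its system was examined in its place. Of 10 genes tested, 2 (20%) were called, beside 7.13% of all genes. Igf1r, the receptor, was higher, with 7.4, 7, 7.2 and 7.7 FPKM in normal mice and 10.3, 11.8, 12.5 and 11.1 FPKM in HFD mice (0.63 ± 0.07, limma adjusted p = 0.000695). Igf2, a ligand made in the adult brain mainly by choroid plexus and meninges, was lower, with 13, 13.7, 13.1 and 9.4 FPKM in normal mice and 7.6, 8, 6.2 and 8 FPKM in HFD mice (-0.71 ± 0.13, limma adjusted p = 0.00367). The diets did not overlap in either gene. Of the binding proteins, Igfbp5 (0.53) was higher and Igfbp2 (-0.55) and Igfbp7 (-0.34) were lower with a limma adjusted p below 0.05, under the 1.5-fold minimum.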

How the data were processed

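Cortex RNA of 8 mice, 4 per diet, was sequenced by the authors as stranded, rRNA-depleted libraries, paired-end with 100 cycles, 1 library per mouse (RIN above 9, per the labels). To obtain FPKM, the authors used FastQC and Trimmomatic on the reads, STAR for alignment to the mm10 genome and then Cuffnorm with the GENCODE annotation of GRCm38.p6. The deposited FPKM are rounded to 0.1. The sources used here give no tool versions. Expression from a second pipeline of the authors (Salmon and edgeR) was not used here. Rounded FPKM hide the read counts, so depth is unknown and no counting interval can be given. FPKM summed to 562431 to 639142 per mouse.

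From the deposited FPKM, log2(FPKM + 0.1) was tested with limma 3.58.1 in R 4.3.3 (variance trend, diet as the only term, two-sided), and p was adjusted by Benjamini-Hochberg over 13982 genes, those averaging at least 1 FPKM and without a 0. Calls needed an adjusted p below 0.05 and over 1.5-fold. Coordinates and transcript sequences came from GENCODE M21 on GRCm38, a later release than that of the authors, and were read with Python 3.11.15. Figures used matplotlib 3.10.9. The procedure was tested on simulated data.

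The members and lists were chosen with earlier results of these data known. Genes were named by a rule: the 9 members, up to 5 called genes each way per list, family or locus neighbours of a member, and the 3 genes most like Dcx, Dlx1 and each called member. Exceptions are stated, and the results of some list genes are not reported here. Lists are described by counts and medians, with no set test. The 16 lists are immature neuron program, Dlx partners and GABA lineage, tubulins, stathmins and microtubule proteins, IGF system, proliferation, and markers of striatal projection neurons, cortical interneurons, cortical projection neurons, olfactory bulb, dentate granule cells, cerebellar granule cells, ependyma, choroid plexus, neural stem cells and astrocytes, and oligodendrocyte precursors. Alternatives were other added constants, filters, scalings, variance models and minimum changes, the replicate number as a block, and each mouse left out.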

Additional observations from a re-analysis of the deposited data

Results flagged for a closer look

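Among 160 groups of 4 mice examined (the members, the summed lists, the called list genes and the neighbours named beside them, in each diet), 13 had 1 mouse whose gap to the nearest other mouse, divided by the range of its group, was above Dixon's 95% critical value for 4 samples, and chance alone flags about 1 in 20 groups. HFD mouse 4 was set apart in the summed choroid plexus markers (1162.5 FPKM, against 100.1 to 157.2 in the other HFD mice), in Folr1 (7.2 against 0.3 to 0.6 FPKM), Clic6 (4.7 against 0.7 to 1.3 FPKM), Enpp2 (204.9 against 75.9 to 88.6 FPKM) and Mia (1.8 against 0.3 to 0.5 FPKM). The same mouse was set apart in the striatal genes Adora2a (0.6 against 0.4 FPKM) and Tac1 (5.7 against 7.7 to 8.1 FPKM). In Adora2a the other HFD mice were tied at 0.4 FPKM after rounding to 0.1 FPKM, where any untied value passes. Normal mouse 4 was set apart in Doc2g (13.3 against 1.4 to 2.9 FPKM) and Igf2 (9.4 against 13 to 13.7 FPKM), and normal mouse 1 in Tuba8 (6.5 against 8.9 to 9.1 FPKM). In HFD mouse 3, Fabp7 was 11.2 FPKM against 17.6 to 18.8, and Bcas1 was 39.2 FPKM against 30.3 to 31. In HFD mouse 1, Plk5 was 3.9 FPKM against 4.6 to 4.7. None of the 7 immature neuron genes passed that value.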

How the results depend on the processing

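Cd24a kept its direction and its call in all 18 alternatives that tested it, and Dlx5 and Tubb3 kept theirs without passing. Stmn1 (0.29) passed in 12 of 19 alternatives. With 1 mouse left out at a time, the log2 fold change was 0.22 to 0.34 for Stmn1, 0.32 to 0.65 for Dcx, -0.61 to -0.34 for Dlx6, -1.43 to -1.31 for Cd24a and -0.10 to 0.32 for Dlx1, which turned to -0.06 without normal mouse 2 and to -0.10 without normal mouse 3. The number of members called was then 1 to 3, of all genes 771 to 1196, of the immature neuron program 1 to 4 and of the Dlx partners 2 to 3. Dlx6 passed after quantile normalization (-0.49, limma adjusted p = 0.0460), and after normal mouse 4 and HFD mouse 4 were left out (-0.63), where 2 members and 4 Dlx partners were called. The latter and the next alternative were chosen after seeing the data. Without normal mice 2 and 3, Stmn1 was at 0.15 and Dlx1 at -0.35, 604 genes were called, and the immature neuron program and the Dlx partners had 0 and 1 calls.

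The called number over all genes was 603 with log2(FPKM + 1), 422 with a mean of at least 5 FPKM, 4626 with no minimum change and 236 with 2-fold. Of the last, 43.6% were higher. Members called were 0 with the 5 FPKM filter, which removes Cd24a and leaves 3 members, and 2 with no minimum change. The immature neuron program had 1 call with log2(FPKM + 1) and 1 with the 5 FPKM filter, and the Dlx partners 1 and 0. The cause of such shifts was not tested, except that filters test fewer genes and left-out mice lower the number of samples.

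The replicate number was checked as a possible pairing. Deviations of same-numbered mice from their diet means had correlations of -0.04, -0.03, -0.11 and -0.07, which gave no sign of pairing. With 4 mice per diet this check cannot exclude it. With the replicate block, 896 genes were called and Stmn1 (0.29) had a limma adjusted p of 0.0595. That of Dcx was 0.0633, and no member other than Stmn1 crossed the threshold. Precision is limited by 4 mice per diet, unknown depth and rounding to 0.1 FPKM.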
